A study of Mus musculus with 2 samples.

Results

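The genes described here are the 5 ligands and 5 receptors of the vascular endothelial growth factor (VEGF) system in mouse: the ligands Vegfa, Vegfb, Vegfc, Vegfd and Pgf, the receptor tyrosine kinases Kdr, Flt1 and Flt4, and the co-receptors Nrp1 and Nrp2. They were taken by name and not by a threshold on level, but with earlier results of these data known. They are 10 of the 42462 genes of the deposited tables that carry a name in the GENCODE M21 annotation, with 35 transcripts between them. RNA was measured by total RNA sequencing of the heart of B6NCrl embryos at embryonic day 16.5. The labels name healthy tissue and give no treatment or genetic change. There are 2 libraries, numbered as biological replicates 1 and 2 of this 1 group, each made from hearts of male and female embryos pooled together. Replicate 2 pooled 41 embryos; how many went into replicate 1 is not given. Both pools carry the same donor identifier and separate biosample identifiers, and nothing in the labels says whether they shared litters or a dissection day. With 1 group there was no condition to compare, so the values below are levels, ratios between genes and differences between the 2 pools. An exact two-sided sign-flip test on 2 libraries cannot go below p = 0.5, and no p-value was computed.

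VEGF ligands are secreted dimers that bind receptor tyrosine kinases on endothelial cells, the cells that line blood vessels, lymphatic vessels and the chambers of the heart. VEGF-A acts through KDR (VEGFR2), the main signalling receptor for vessel growth, and binds FLT1 (VEGFR1) more tightly but with weaker kinase signalling, so FLT1 and its soluble form can hold the ligand back. VEGF-B and PlGF, the product of Pgf, bind FLT1, and VEGF-C and VEGF-D bind FLT4 (VEGFR3), the receptor of lymphatic endothelium. NRP1 and NRP2 are co-receptors that bind certain ligand forms and also serve as receptors of class 3 semaphorins. In the developing heart the system is known for its part in the coronary vessels, the endocardium and the cardiac lymphatics.

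Replicate 1 held 37160624 estimated counts and replicate 2 held 40360242, of which 36504004 and 38917114 lay on annotated mouse genes. Spike-in RNAs took a share of 1.616% in replicate 1 and 3.412% in replicate 2. Heart muscle markers were high in both libraries, led by Actc1 (12648 and 12222 TPM in replicates 1 and 2) and Tnnt2 (8010 and 8440 TPM); TPM is a level corrected for transcript length and relative to all transcripts of a library. All 16 endothelial markers, all 6 lymphatic endothelial markers and all 6 endocardial markers were at 1 TPM or more in both libraries. Of all protein-coding genes 59.1% were. The summed levels of these lists were 1060 and 946 TPM, 144 and 127 TPM, and 135 and 145 TPM in replicates 1 and 2. Markers of neighbouring organs were present and set the pools apart. The 9 lung epithelial markers summed to 990 TPM in replicate 1 and 123 TPM in replicate 2, led by the surfactant gene Sftpc at 883 and 96.7 TPM, and all 8 that averaged at least 1 TPM were more than 1.5-fold higher in replicate 1. The 9 thymus markers summed to 105 TPM in replicate 1 and 256 TPM in replicate 2, and all 8 that averaged at least 1 TPM were more than 1.5-fold lower in replicate 1, as were 4 of the 6 skeletal muscle markers that did so. The markers under that mean, Sftpd (0.210 and 0.0800 TPM in replicates 1 and 2), Cd4 (0.21 and 1.7 TPM) and Myod1 (0.190 and 0.350 TPM), lay in the same directions as their lists, and Pax7 was listed at 0.0100 and 0 TPM. None of these markers was listed at 0 in both libraries. Each pool gave a single library, so the pool and its library preparation cannot be told apart, and in bulk RNA fewer cells of a type and less RNA per cell cannot be told apart either.

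Several of these genes make more than 1 protein from the same locus, and the stretches of RNA that tell the forms apart are shown because the share of each form is a result below. Sequences are from the GENCODE M21 transcripts on GRCm38, the same assembly as mm10, and run 5′ to 3′ along the transcript. Vegfa lies on the minus strand of chromosome 17. Its forms are named by the length of the mature protein in residues and differ in exon 6 (72 nt, chr17:46022277-46022348) and exon 7 (132 nt, chr17:46020991-46021122), which are placed between exon 5 (chr17:46024065-46024094) and the coding part of exon 8 (chr17:46018861-46018879). Exons 6 and 7 encode the stretches that bind heparan sulfate, so VEGF-A 120, which lacks both, diffuses freely, VEGF-A 188, which has both, stays near the cell that made it, and VEGF-A 164, with exon 7 alone, lies between them and binds neuropilins well. Capitals mark the optional exons.
VEGF-A 120: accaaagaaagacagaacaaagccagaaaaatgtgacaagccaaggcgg
VEGF-A 164: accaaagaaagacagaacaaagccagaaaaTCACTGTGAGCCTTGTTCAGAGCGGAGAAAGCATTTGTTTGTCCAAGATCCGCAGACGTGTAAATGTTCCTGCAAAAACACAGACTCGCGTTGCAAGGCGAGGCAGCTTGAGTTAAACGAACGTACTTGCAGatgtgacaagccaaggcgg
VEGF-A 188: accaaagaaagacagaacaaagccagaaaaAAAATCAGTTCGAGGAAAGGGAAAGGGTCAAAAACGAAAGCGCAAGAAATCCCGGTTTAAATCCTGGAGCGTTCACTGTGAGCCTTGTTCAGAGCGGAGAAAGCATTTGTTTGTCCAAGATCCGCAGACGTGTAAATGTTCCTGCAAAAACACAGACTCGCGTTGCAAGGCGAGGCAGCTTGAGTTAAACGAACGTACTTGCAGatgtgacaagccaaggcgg

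Vegfb, on the minus strand of chromosome 19, makes 2 forms that differ by 101 nt at the 5′ end of an exon (chr19:6985496-6985596). The added bases shift the reading frame of what follows. VEGF-B 167 ends in a heparin-binding stretch and VEGF-B 186 in a different, soluble one. Capitals mark the 101 nt.
VEGF-B 186: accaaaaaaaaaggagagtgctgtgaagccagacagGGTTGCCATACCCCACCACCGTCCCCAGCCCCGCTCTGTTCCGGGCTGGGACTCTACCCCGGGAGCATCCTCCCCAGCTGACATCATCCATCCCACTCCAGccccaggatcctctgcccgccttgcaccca
VEGF-B 167: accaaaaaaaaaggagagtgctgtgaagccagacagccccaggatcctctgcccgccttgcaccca

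Flt1, on the minus strand of chromosome 5, makes the full-length receptor from 30 coding exons. Its soluble form reads past the end of coding exon 13 (chr5:147639225-147639533) into the intron for 92 coding nt and a stop codon, and therefore lacks the membrane-spanning and kinase parts. In the soluble form capitals mark the bases read from the intron (chr5:147639130-147639224), and in the full-length form the first 30 nt of the next exon (chr5:147634494-147634523).
Flt1 soluble: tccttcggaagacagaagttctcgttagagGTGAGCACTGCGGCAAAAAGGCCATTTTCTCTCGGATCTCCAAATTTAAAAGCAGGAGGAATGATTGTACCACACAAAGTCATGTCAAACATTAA
Flt1 full length: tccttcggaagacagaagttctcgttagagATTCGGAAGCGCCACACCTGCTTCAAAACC

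Nrp2, on the plus strand of chromosome 1, has alternative last coding exons that give NRP2a and NRP2b different membrane-spanning and intracellular ends. NRP2a ends in the residues SEA, which bind the adaptor protein GIPC1. Capitals mark the first 60 nt of each last coding exon, at chr1:62815333-62815392 for NRP2a and chr1:62795709-62795768 for NRP2b.
NRP2a: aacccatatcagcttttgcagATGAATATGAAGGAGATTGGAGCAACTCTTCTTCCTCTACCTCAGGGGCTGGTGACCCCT
NRP2b: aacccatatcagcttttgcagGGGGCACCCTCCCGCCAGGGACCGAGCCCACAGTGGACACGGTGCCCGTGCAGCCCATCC

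All 10 genes reached 1 TPM in each library, where 59.1% of the 21474 protein-coding genes did. Gene coordinates below are those of GRCm38. The median of the 10 was 7.32 TPM, and that of protein-coding genes averaging at least 1 TPM was 15.3 TPM. In order of mean level they ran Vegfb, Nrp1, Kdr, Flt1, Vegfc, Pgf, Nrp2, Flt4, Vegfa and Vegfd. The first 5 were separated from each other, each neighbour lying outside the range of the 2 libraries of the next. From Vegfc down, the 5 neighbouring pairs overlapped in range and their order was not resolved. The authors' credibility intervals, whose level the files do not state, are given beside each TPM below, and cover counting and read-assignment error only.

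**Figure D1:**
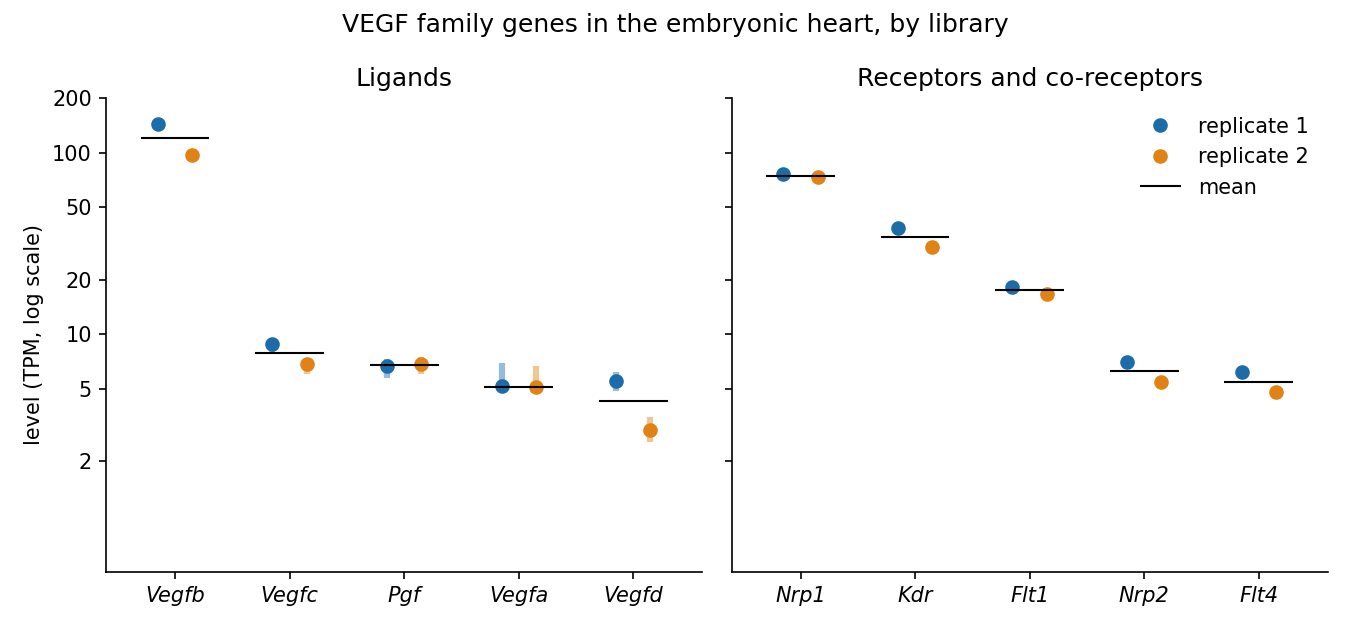
Level of each VEGF ligand (left) and receptor or co-receptor (right) in TPM on a log axis, with 1 point per library, the authors' credibility interval as a vertical bar and the mean of the 2 libraries as a horizontal line. Vegfb stands far above the other ligands, at 143 and 97.7 TPM in replicates 1 and 2, and the receptors step down from Nrp1 to Flt4.

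Among the ligands, Vegfb held most of the RNA. Vegfb (ENSMUSG00000024962.9, chr19:6982473-6987651) was at 143 TPM in replicate 1 (interval 136 to 145, 4216 counts) and 97.7 TPM in replicate 2 (interval 92.5 to 99.3, 3154 counts), a mean of 120 ± 32.1 TPM (SD, n = 2). It ranked 1085 among protein-coding genes and stood above 91.6% of those expressed. Ligand TPM summed to 169 in replicate 1 and 119 in replicate 2, of which Vegfb made up 84.5% and 81.7%. VEGF-B is known as a factor of heart muscle and other tissues with high fatty acid use.

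Vegfa, the ligand of KDR and FLT1 that drives the sprouting of blood vessels, was among the low genes of the family, whose order was not resolved. It came above Flt4 by posterior mean TPM and below Vegfd by protein-coding transcripts alone. Vegfa (ENSMUSG00000023951.12, chr17:46016993-46032369) was at 5.20 TPM in replicate 1 (interval 4.82 to 6.93, 309 counts) and 5.12 TPM in replicate 2 (interval 4.79 to 6.73, 338 counts). It made up 3.07% and 4.29% of ligand TPM. The libraries nearly coincided, at 5.16 ± 0.0566 TPM (SD, n = 2), a spread much smaller than the width of either interval. Part of the level came from transcripts without a reading frame, and protein-coding transcripts alone gave 3.79 TPM in replicate 1 and 3.77 TPM in replicate 2. Relative to Vegfb, Vegfa was 0.0364-fold in replicate 1 and 0.0524-fold in replicate 2, a log2 ratio of -4.52 ± 0.37 (SD, n = 2), and the intervals were apart in both libraries. With estimated counts not divided by length, the log2 ratio was -3.50.

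Pgf, which encodes the FLT1-binding placental growth factor, was close to Vegfa in level. Pgf (ENSMUSG00000004791.6, chr12:85166635-85177790) was at 6.66 TPM in replicate 1 (interval 5.78 to 7.35, 264 counts) and 6.89 TPM in replicate 2 (interval 6.02 to 7.54, 303 counts). On the log2 scale, Vegfa over Pgf was -0.36 in replicate 1 and -0.43 in replicate 2. The TPM of the libraries was lower for Vegfa in both, but the credibility intervals of the genes overlapped in both, and estimated counts without length correction put Vegfa higher (log2 ratio 0.19). Vegfb over Pgf was 21.5-fold in replicate 1 and 14.2-fold in replicate 2.

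The lymphatic ligands were low as well. Vegfc (ENSMUSG00000031520.5, chr8:54077606-54187096), which drives the sprouting of lymphatic vessels through FLT4, was at 8.89 TPM in replicate 1 (interval 7.91 to 9.56, 423 counts) and 6.83 TPM in replicate 2 (interval 6.03 to 7.41, 361 counts). Vegfd (ENSMUSG00000031380.10, chrX:164373378-164402650), a second FLT4 ligand, was at 5.57 TPM in replicate 1 (interval 4.87 to 6.23, 282 counts) and 2.97 TPM in replicate 2 (interval 2.57 to 3.51, 172 counts). Vegfc exceeded Vegfd in both libraries, by 1.60-fold in replicate 1 and 2.30-fold in replicate 2, with intervals apart in each. Vegfa over Vegfc was 0.585-fold in replicate 1 and 0.750-fold in replicate 2, and the intervals of this pair did not stay apart in both libraries.

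The receptor kinases stood in the order Kdr, Flt1 and Flt4 in both libraries. Kdr (ENSMUSG00000062960.7, chr5:75932827-75978458) was at 38.5 TPM in replicate 1 (interval 36.7 to 38.6, 5967 counts) and 30.4 TPM in replicate 2 (interval 29.0 to 30.6, 5236 counts). Flt1 (ENSMUSG00000029648.9, chr5:147561604-147726011) was at 18.3 TPM in replicate 1 (interval 16.9 to 19.7, 2313 counts) and 16.6 TPM in replicate 2 (interval 15.3 to 17.9, 2424 counts). Flt4 (ENSMUSG00000020357.3, chr11:49609263-49652739) was at 6.17 TPM in replicate 1 (interval 5.68 to 6.43, 1006 counts) and 4.81 TPM in replicate 2 (interval 4.42 to 5.05, 865 counts). Kdr held 61.1% of the TPM of these kinases in replicate 1 and 58.7% in replicate 2.

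The ratio of Kdr to Flt4 was nearly the same in both libraries. Kdr over Flt4 was 6.23-fold in replicate 1 and 6.32-fold in replicate 2 (log2 ratio 2.65 ± 0.01, SD, n = 2), although each gene was lower in replicate 2. This SD was the smallest of the 10 pairs compared and rests on 2 values. It leaves out the error within each library, where the Flt4 interval ran from 5.68 to 6.43 TPM in replicate 1 and from 4.42 to 5.05 TPM in replicate 2. Kdr over Flt1 was 2.10-fold and 1.83-fold in replicates 1 and 2 (log2 ratio 0.97 ± 0.14, SD, n = 2), and Flt1 over Flt4 was 2.97-fold and 3.45-fold (1.68 ± 0.15, SD, n = 2). Intervals were apart in both libraries for all 3 ratios. The level of Flt1 includes transcripts without a reading frame. Protein-coding transcripts alone gave 11.2 TPM in replicate 1 and 11.0 TPM in replicate 2, which put Kdr over Flt1 at a log2 ratio of 1.62 and Flt1 over Flt4 at 1.06.

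Of the co-receptors, Nrp1 was the second highest gene of the family and Nrp2 was low. Nrp1 (ENSMUSG00000025810.8, chr8:128358604-128503363) was at 76.3 TPM in replicate 1 (interval 73.3 to 76.0, 11837 counts) and 73.2 TPM in replicate 2 (interval 70.5 to 73.0, 12603 counts), each just above its own interval. It stood above 86.4% of expressed protein-coding genes. An exon of the microRNA gene Mir1903 overlaps an exon of Nrp1, the only overlap of exons with another gene among the 10. Overlaps outside exons were not looked for. Nrp2 (ENSMUSG00000025969.11, chr1:62703285-62818695) was at 7.07 TPM in replicate 1 (interval 6.47 to 7.49, 993 counts) and 5.47 TPM in replicate 2 (interval 5.01 to 5.84, 901 counts). Nrp1 over Nrp2 was 10.8-fold in replicate 1 and 13.4-fold in replicate 2, a log2 ratio of 3.59 ± 0.22 (SD, n = 2). Nrp1 also exceeded Kdr, the kinase it assists, by 1.98-fold in replicate 1 and 2.41-fold in replicate 2. Nrp1 is also made by cells other than endothelium, and these values do not say which cells of the heart held it.

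Across the 10 gene pairs compared, all had ranges of the 2 libraries that did not overlap and the same direction in both, and 8 also had intervals apart in both libraries. The exceptions by interval were Vegfa over Vegfc and Vegfa over Pgf. These pairs were chosen with earlier results of these data known, so the counts describe only the pairs listed. None of the 5 neighbouring pairs that overlapped in range was among them.

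The transcript tables divide each gene's level among its annotated transcripts. These shares are estimates from short reads, and where forms share most of their length the split rests on few reads. The highest transcript was the same in both libraries for 9 of the 10 genes, of which 3 (Nrp1, Pgf and Vegfc) have a single transcript in the tables. Kdr and Flt4 came almost whole from 1 coding transcript each, at 99.4% of the gene's TPM in both libraries for Kdr and 97.9% and 96.6% in replicates 1 and 2 for Flt4. Vegfd did so at 95.3% in replicate 1 and wholly in replicate 2.

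**Figure D2:**
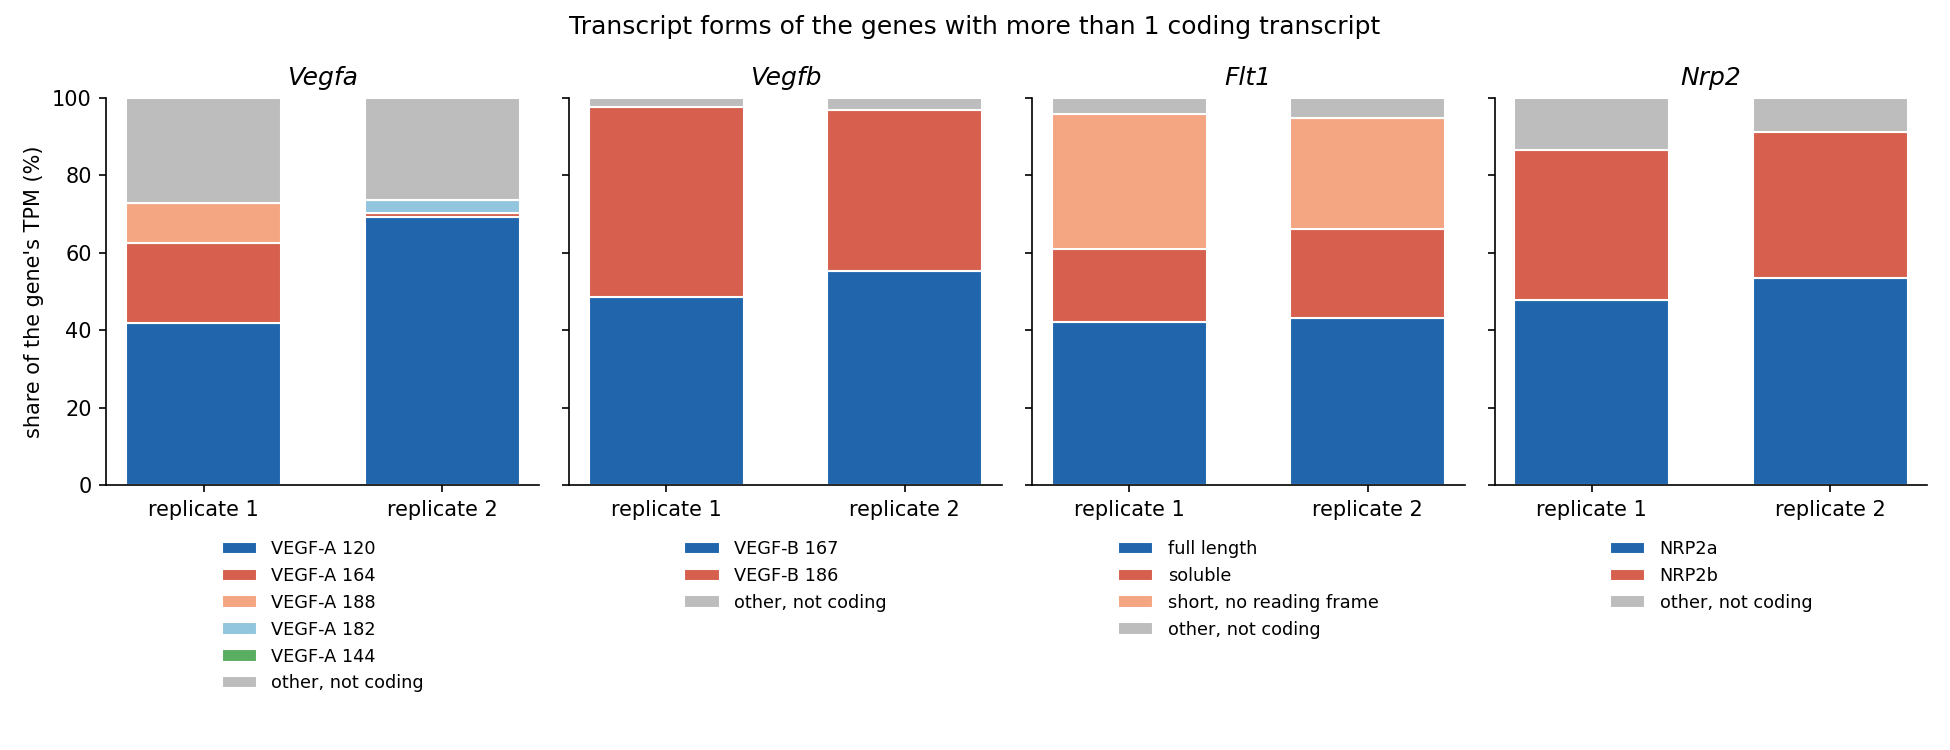
Share of each gene's TPM (percent, from 0 to 100) held by its transcript forms in replicate 1 and replicate 2, for the 4 genes with more than 1 coding transcript. VEGF-A 120 has the largest summed share of Vegfa in both libraries (41.9% and 69.3%, with its order against VEGF-A 164 not resolved in replicate 1), while the forms of Vegfb, Flt1 and Nrp2 keep closer shares between the libraries.

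VEGF-A 120, the form without exons 6 and 7, had the largest summed share of Vegfa in both libraries, but in replicate 1 its order against VEGF-A 164 was not resolved. Its 2 transcripts held 41.9% of the gene's TPM in replicate 1 (168 counts) and 69.3% in replicate 2 (309 counts). VEGF-A 164 held 20.7% in replicate 1 (96.4 counts) and 1.01% in replicate 2 (5.14 counts), and the intervals of its TPM, 0.527 to 2.23 in replicate 1 and up to 0.774 in replicate 2, overlapped. In replicate 1 the single VEGF-A 164 transcript had 96.4 counts, against 95.4 and 72.1 counts for the VEGF-A 120 transcripts, and the TPM intervals of these (0.513 to 1.98 and up to 1.37) overlapped with its own. VEGF-A 188 held 10.2% in replicate 1 (26.5 counts) and was listed at 0 in replicate 2. The authors' posterior means drew the libraries closer, at 30.6% and 54.6% for VEGF-A 120, 23.8% and 5.49% for VEGF-A 164, and 8.24% and 2.94% for VEGF-A 188. With 309 and 338 counts for the whole gene in replicates 1 and 2, the difference between the libraries in the share of VEGF-A 164 was therefore not resolved. VEGF-A 182, with exon 7 and a shortened exon 6, was listed at 0 in replicate 1 and at 3.37% in replicate 2, and VEGF-A 144, with exon 6 alone, was listed at 0 in both. The 5 transcripts with a retained intron held 27.2% in replicate 1 and 26.3% in replicate 2, but 5.98% and 6.12% of the estimated counts, since they are short and TPM divides by length.

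Vegfb made its forms in similar amounts. VEGF-B 167 held 48.6% in replicate 1 (69.5 TPM, 1965 counts) and 55.3% in replicate 2 (54.0 TPM, 1697 counts). VEGF-B 186 held 49.2% in replicate 1 (70.3 TPM, 2220 counts) and 41.6% in replicate 2 (40.7 TPM, 1425 counts). The order of the forms thus differed between the libraries, which made Vegfb the exception among the 10 genes in its highest transcript. The intervals of the forms overlapped in replicate 1 (61.2 to 74.5 TPM for VEGF-B 167, and from 62.9 TPM for VEGF-B 186) and were apart in replicate 2 (47.7 to 57.9 TPM and 35.5 to 44.5 TPM).

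Flt1 RNA was a mixture of full-length, soluble and short transcripts. The full-length transcript held 42.2% of the gene's TPM in replicate 1 (1404 counts) and 43.2% in replicate 2 (1445 counts). The soluble form held 18.9% in replicate 1 (573 counts) and 22.9% in replicate 2 (697 counts). Among coding transcripts alone, the soluble form made up 30.9% in replicate 1 and 34.6% in replicate 2. A short transcript of 2049 nt with no annotated reading frame, which ends in an exon of its own of 241 nt, held 34.8% and 28.7% in replicates 1 and 2, on 332 and 275 counts. The length correction raises the share of this short transcript: of the gene's estimated counts it held 14.4% in replicate 1 and 11.4% in replicate 2, and the full-length transcript 60.7% and 59.6%. The soluble form has 4066 nt inside the intron, where reads of unspliced Flt1 RNA and reads of this form cannot be told apart.

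Nrp2 RNA was split between its forms. NRP2a held 47.8% in replicate 1 (587 counts over 4 transcripts) and 53.4% in replicate 2 (569 counts). NRP2b held 38.8% in replicate 1 (338 counts over 2 transcripts) and 37.7% in replicate 2 (293 counts), and a transcript with a retained intron held 13.3% and 8.86%. NRP2a had the larger summed share in both libraries, though transcripts of the forms share most of their length. The TPM intervals of the highest transcript of each form overlapped in both libraries. They were 0.963 to 2.498 for NRP2a and 1.516 to 2.665 for NRP2b in replicate 1, and 0.412 to 2.279 and 0.954 to 1.913 in replicate 2. In replicate 2 this NRP2a transcript, at 2.56 TPM, lay above its own interval. Among coding transcripts alone NRP2a made up 55.2% in replicate 1 and 58.6% in replicate 2.

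The pools were then set against each other as the log2 ratio of TPM + 0.1, replicate 1 over replicate 2, among 12987 protein-coding genes averaging at least 1 TPM. Of the 10 genes 1, Vegfd, was more than 1.5-fold apart, where 7.38% of all genes tested were, in either direction. A count of 1 in 10 is close to that share. Among genes averaging at least 10 TPM 2.28% were that far apart, so the share was larger among lower genes. Vegfd, with a mean of 4.27 TPM, was 1 of these. It was beyond the threshold on the side of replicate 1, as were 3.5% of all genes tested. Vegfd was at 5.57 TPM in replicate 1 and 2.97 TPM in replicate 2, 1.85-fold, with intervals apart. Of expressed protein-coding genes of all levels 3.5% were further apart, a share not computed for genes of its level. It stayed beyond 1.5-fold with TMM scaling of the counts (log2 ratio 0.82). Vegfd is also known to be made in the lung of the mouse fetus. The lung epithelial markers were higher in the same library (990 TPM in replicate 1 and 123 TPM in replicate 2, median log2 ratio 2.84). The summed lymphatic markers were at 144 TPM in replicate 1 and 127 TPM in replicate 2 (median log2 ratio 0.18). That lymphatic sum was led by Ccl21a (49.4 and 40.7 TPM in replicates 1 and 2) and Sox18 (46.7 and 42.6 TPM). Sox18 is also in the endothelial list, so the sum is not a measure of lymphatic cells alone. The part of these lists in the difference of Vegfd was not tested.

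The other genes lay within 1.5-fold, and 9 of the 10 were higher in replicate 1, as were 61.8% of all genes tested. Vegfb came nearest to the threshold at 1.46-fold, a log2 ratio of 0.55, with intervals apart (136 to 145 and 92.5 to 99.3 TPM in replicates 1 and 2). Of expressed genes of all levels 8.12% were further apart. Among genes averaging at least 10 TPM, as Vegfb did, 2.28% were beyond 1.5-fold. Vegfc (0.38), Nrp2 (0.36), Flt4 (0.35) and Kdr (0.34) followed on the log2 scale. Flt1 (0.14), Nrp1 (0.06), Vegfa (0.02) and Pgf (-0.05) were close to even. The median over the 10 genes was 0.35, and over all genes tested 0.06. With TMM scaling 8 of the 10 were higher in replicate 1, as Vegfa turned to -0.02, and the median over all genes tested was 0.01. The share of all genes higher in replicate 1 was not computed with this scaling, and the 61.8% does not apply to it. Among marker lists, the median log2 ratio was 0.18 for endothelial, 0.18 for lymphatic endothelial, 0.33 for fibroblast, 0.27 for smooth muscle and pericyte, and 0.15 for erythroid markers. It was 0.05 for cardiomyocyte, -0.04 for endocardial, -0.04 for epicardial and -0.05 for macrophage markers. The lists furthest from even were the lung epithelial (2.84), thymus (-1.27) and skeletal muscle (-1.03) markers. The fibroblast list was not uniform, with Postn at -0.20 and Dcn at -0.12. The part of these lists in the members' values was not tested.

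**Figure D3:**
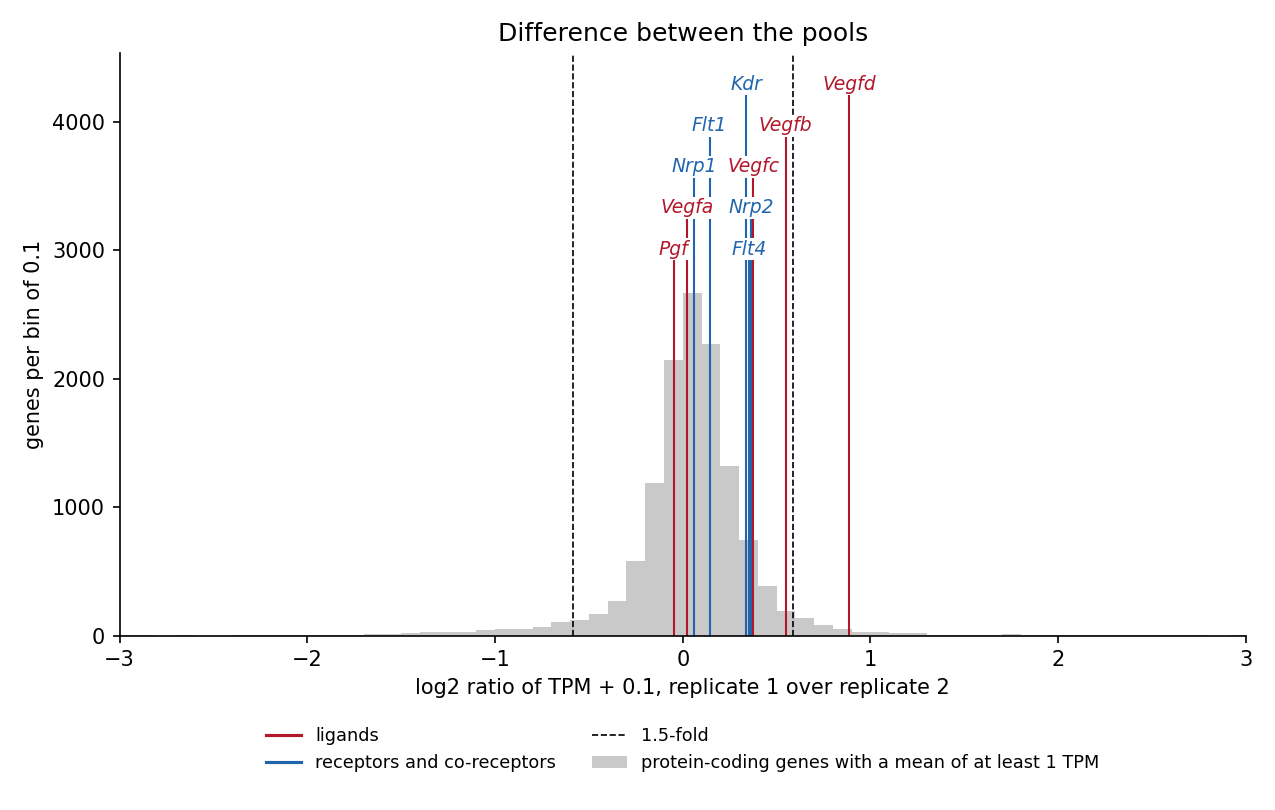
Log2 ratio of TPM + 0.1, replicate 1 over replicate 2, for protein-coding genes averaging at least 1 TPM (grey bars, genes per bin of 0.1; 12963 genes shown and 24 beyond the axis) and for each VEGF family gene (lines; their height has no meaning), with dashed lines at 1.5-fold. Vegfd is the gene of the family beyond 1.5-fold, and Vegfb lies just inside.

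Genes linked to the family were mostly expressed. The 6 lists cover VEGF-C processing, receptor partners and regulators, receptor signalling, VEGF response genes, class 3 semaphorins and oxygen sensing upstream of Vegfa. Of their 89 measured genes, 84 (94.4%) reached 1 TPM in each library, where 59.1% of protein-coding genes did. That share belongs beside each such count below. The median level was 15.6 TPM, and that of protein-coding genes averaging at least 1 TPM was 15.3 TPM. Of the 84 genes averaging at least 1 TPM, 4 were more than 1.5-fold higher in replicate 1, where 3.5% of all genes were, and 3 were more than 1.5-fold lower in replicate 1, where 3.87% were. The processing of VEGF-C, which must be cut to activate KDR and FLT4 fully, was represented by the proprotein convertases Pcsk7 (12.8 ± 1.51 TPM), Furin (10.4 ± 2.22 TPM) and Pcsk5 (7.14 ± 1.09 TPM; SD, n = 2 for all values in this form). The protease Adamts3 was at 1.97 TPM in replicate 1 and 1.82 TPM in replicate 2. Ccbe1, the cofactor that brings ADAMTS3 to VEGF-C, was at 0.270 TPM in replicate 1 and 0.170 TPM in replicate 2, the 1 gene of the 6 in this list below 1 TPM.

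All 15 receptor partners and regulators reached 1 TPM in each library, and their median was 19.8 TPM. The highest were the integrin subunit Itgb1 (284 ± 7.83 TPM), the NRP1-binding adaptor Gipc1 (113 ± 10.6 TPM) and the membrane protease Mmp14 (74.9 ± 7.09 TPM). Ptprb, the endothelial phosphatase VE-PTP that acts on TIE2 and KDR, was at 4.78 TPM in replicate 1 and 3.09 TPM in replicate 2, 1.53-fold. Mmp9, a protease that frees VEGF from matrix, was at 3.19 TPM in replicate 1 and 7.68 TPM in replicate 2, 0.423-fold.

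Of 44 genes of VEGF receptor signalling 43 reached 1 TPM in each library, and their median was 25.1 TPM. The exception was the kinase subunit Pik3cb, at 1.20 TPM in replicate 1 and 0.780 TPM in replicate 2. The small heat shock protein gene Hspb1 (735 ± 108 TPM), which heart muscle also expresses, and the small GTPases Cdc42 (412 ± 4.32 TPM) and Rac1 (203 ± 5.33 TPM) were the highest. The GTPase Hras (76.6 and 47.1 TPM in replicates 1 and 2) and the exchange factor Vav2 (3.20 and 2.06 TPM) were more than 1.5-fold higher in replicate 1. The kinase Prkcb (3.93 and 7.70 TPM) and the T cell and endothelial adaptor Sh2d2a (2.77 and 7.05 TPM) were more than 1.5-fold lower in replicate 1. T cells of the thymus express Sh2d2a too, and the thymus markers were lower in the same library (105 TPM in replicate 1 and 256 TPM in replicate 2); their part in the difference was not tested.

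Of 9 measured genes that endothelial cells are known to raise in response to VEGF 8 reached 1 TPM in each library, and their median was 8.37 TPM. The calcineurin regulator Rcan1 (68.3 ± 6.94 TPM), the Notch ligand Dll4 (11.5 ± 0.446 TPM) and the nuclear receptor Nr4a1 (10.3 ± 0.127 TPM) were the highest. The transcription factor Hlx was at 11.6 TPM in replicate 1 and 7.58 TPM in replicate 2, 1.52-fold. Egr3 was the exception, at 0.110 TPM in replicate 1 and 0.180 TPM in replicate 2. None of these levels in a single condition shows that VEGF acted on them.

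**Figure D4:**
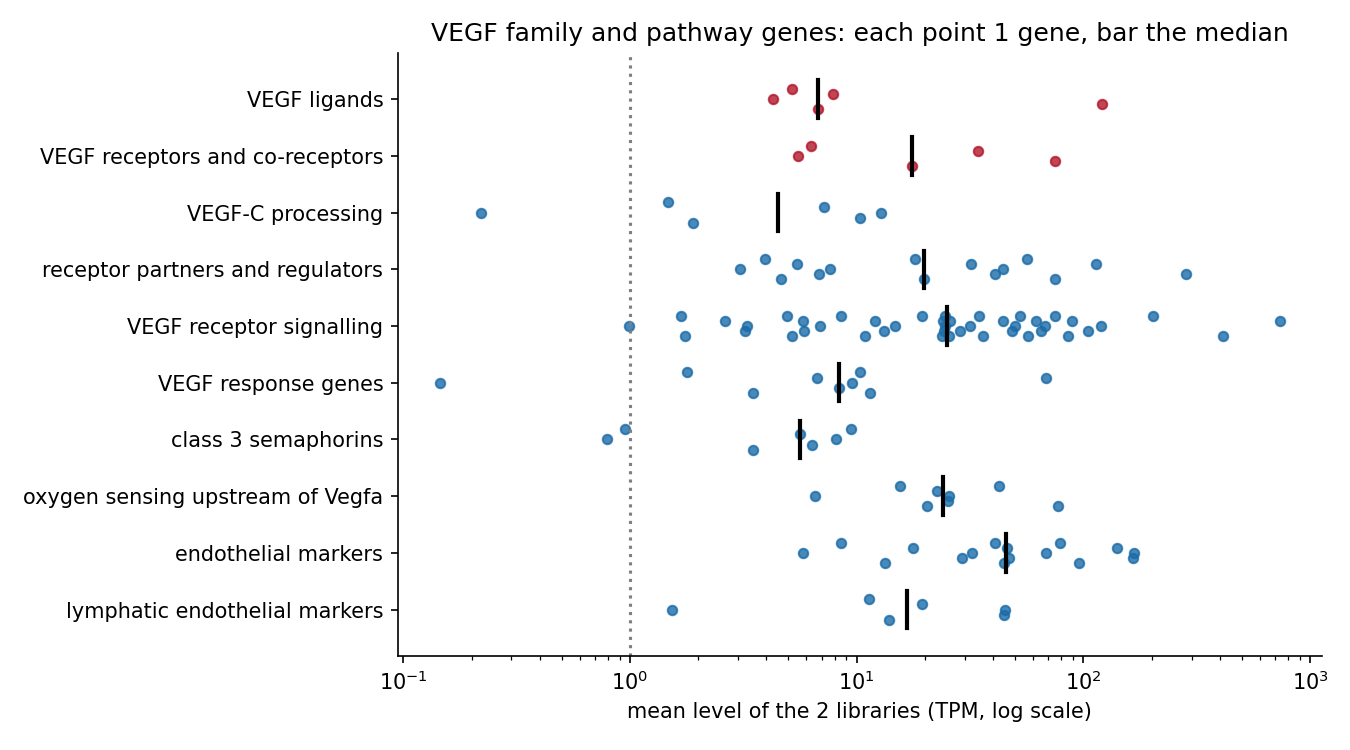
Mean level of the 2 libraries in TPM (log axis) for each gene of the VEGF ligands and receptors (red), of the 6 pathway lists and of the endothelial and lymphatic endothelial markers (blue), with the median of each list as a black bar and a dotted line at 1 TPM. The ligands have a median of 6.78 TPM and the receptors of 17.4 TPM, against 45.4 TPM for the endothelial markers.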

How the data were processed

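Total RNA was sequenced from 2 pools of embryonic heart, 1 library each. Per the labels' protocols, RNA over 200 nt was extracted with a mirVana kit, 10 ng entered each library, and the listed documents include the manual of a SMARTer Ultra Low kit. The sources used here do not give the aligner, the quantification tool or the use of strand. Per the file headers, the authors quantified reads on mm10 with annotation M4, 1 library per table.

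The deposited tables hold estimated counts (not normalized, rounded to whole numbers here before scaling), TPM over all rows including spike-ins, and the percent of a gene's TPM held by each transcript. The deposited bounds of TPM credibility intervals were treated as a score, since the file headers do not state their level. Of 69691 rows, 43346 carry Ensembl identifiers, of which 42462 were matched by identifier to GENCODE M21; spike-in, phiX and numeric rows stayed out of all comparisons. The M21 length equalled that in the tables for 32 of the 35 transcripts, the exceptions being in Nrp1, Vegfa and Vegfc. Length correction and shared sequence make TPM of short and overlapping transcripts less certain than their counts.

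Pools were compared as log2 of TPM + 0.1, replicate 1 over replicate 2, among protein-coding genes averaging at least 1 TPM, and counted as apart beyond 1.5-fold. The calculation was tested on simulated data. TMM factors came from edgeR 4.0.16 and size factors from DESeq2 1.42.0 in R 4.3.3, over genes reaching 10 counts in both libraries, and served only as scaling alternatives with 0.5 added to counts. Tables were handled with pandas 2.3.3 in Python 3.11.15. P-values would measure only the spread of 2 libraries, and none was computed. No molecular identifiers are recorded, so reads need not be independent molecules.

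The members, lists, pairs and thresholds were chosen with earlier results of these data known. Named genes are the 10 members, their transcripts with at least 10% of a gene's TPM in either library, the 3 highest genes of each pathway list and those beyond 1.5-fold, and the highest of the cell type lists; Ccbe1, Adamts3, Pik3cb, Egr3, Sema3e, Sema3g, Sftpd, Cd4, Myod1, Pax7, Postn, Dcn, VEGF-A 182 and VEGF-A 144 were named after their values were seen. Cyr61 was not matched by symbol.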

Additional observations from a re-analysis of the deposited data

How the results depend on the processing

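All 10 genes stayed at 1 TPM or more with posterior mean TPM, TPM without spike-in rows, coding transcripts alone and either library alone, and 8 reached 5 TPM in both libraries. The share of genes apart between the pools was 7.38%, and became 4.87% with a pseudocount of 1 TPM, 12.6% with no filter, 2.28% with a mean filter of 10 TPM and 2.80% with a 2-fold threshold. Vegfd was the gene of the family called apart under each scaling, pseudocount and unit tried and with no filter, and the count was 0 with a mean filter of 10 TPM and 0 at 2-fold, since Vegfd averaged 4.27 TPM and was 1.85-fold apart. The ratio of Vegfa over Pgf turned to a log2 value of 0.19 with counts not divided by length, against -0.39 as reported. All 10 pairs kept their ranges apart in each unit, and the credibility intervals kept 8. The pathway count of 84 genes became 67 at 5 TPM, and in single libraries lay between 84 and 86. The highest transcript was shared in 7 genes by posterior mean and in 8 by counts, against 9 as reported. No paired analysis was possible because the series has a single group. The Vegfa forms rest on 309 and 338 counts in replicates 1 and 2.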

Other observations

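Genes that set the level of Vegfa under low oxygen were expressed throughout. All 8 reached 1 TPM in each library, where 59.1% of protein-coding genes did, and their median was 24.0 TPM. None of the 8 was more than 1.5-fold apart, where 7.38% of all genes tested were, so a list of this size says little on that. The oxygen-regulated factor Hif1a was the highest, at 78.5 TPM in replicate 1 and 75.7 TPM in replicate 2 (77.1 ± 2.02, SD, n = 2), followed by the prolyl hydroxylase Egln2 at 46.2 and 38.5 TPM in replicates 1 and 2 (42.3 ± 5.44) and the HIF partner Arnt at 26.8 and 24.3 TPM (25.6 ± 1.78). HIF proteins are regulated mainly by their breakdown, which RNA levels do not show.

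The class 3 semaphorins, secreted guidance proteins that mostly share NRP1 and NRP2 with the VEGF ligands, were low. Of 7 measured, 5 were at 1 TPM or more in both libraries, led by Sema3b (9.42 ± 0.898 TPM), Sema3c (8.14 ± 1.01 TPM), which the outflow tract of the heart is known to need, and Sema3d (6.33 ± 0.728 TPM; SD, n = 2). Sema3e was at 1.56 TPM in replicate 1 and 0.340 TPM in replicate 2, and Sema3g at 0.810 and 0.770 TPM. The ratio for Sema3e was 3.77-fold, but its mean of 0.95 TPM kept it out of the counts beyond 1.5-fold.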
